A study of Rattus norvegicus with 20 samples.

Results

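The genes described here encode the subunits of voltage-gated sodium and calcium channels, measured in male rats of the inbred Fischer344/Jcl strain in 2 brain regions, prefrontal cortex and nucleus accumbens. Members were the genes whose symbol in the authors' deposited tables was Scn followed by a digit, or began with Cacna, Cacnb or Cacng. They numbered 40 of the 16078 gene symbols in those tables, and for the 5 members with more than 1 RefSeq accession the accession with the highest mean count was used. Sodium channel genes numbered 14, of which 10 encode pore-forming alpha subunits and 4 encode beta subunits. Calcium channel genes numbered 26, made up of 4 Cav1, 3 Cav2 and 3 Cav3 pore-forming alpha1 genes, 4 alpha2delta genes, 4 beta genes and 8 gamma genes.

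The 20 libraries fell into 4 groups of 5. One cortex group and one accumbens group came from rats given the standard AIN-93G diet from day 21 to day 39 of age. The other two groups came from rats given a low-iron diet over the same days, and tissue of all 4 groups was taken at week 13. Each library is poly(A) RNA from a whole dissected region, in which fewer cells of a type and less RNA per cell cannot be told apart. Nothing in the labels ties the 5 libraries of a group to separate rats. The p-values therefore measure only how far these samples differ from each other, and that spread may be technical.

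Sodium channel alpha subunits form the pore that carries the rising phase of the action potential, and beta subunits alter its gating and anchor it in the membrane. Calcium channels open on depolarisation and couple it to transmitter release (Cav2), to gene transcription and dendritic signalling (Cav1) or to burst firing (Cav3). Their alpha2delta and beta subunits set how many channels reach the membrane, while several gamma subunits serve mainly as auxiliary subunits of AMPA-type glutamate receptors (TARPs). In the striatum, which includes the accumbens, most neurons are GABAergic projection neurons, whereas most cortical neurons are glutamatergic.

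Reads assigned to accessions ranged from 4.34 to 12.97 M per library (M, 1000000 reads), with means of 10.3 ± 2.0 M (SD, n = 5) in cortex under standard diet, 9.36 ± 2.59 after low-iron diet, 7.19 ± 1.35 in accumbens under standard diet and 5.13 ± 0.696 after low-iron diet. Levels below are counts per 1000000 assigned reads (CPM), scaled by the TMM method over all 20 libraries. Summed markers of cortical glutamatergic neurons were 1873 to 3564 CPM in cortex and 72.0 to 515 CPM in accumbens. Those of striatal projection neurons were 338 to 381 CPM in cortex and 3696 to 6638 CPM in accumbens, so each region's markers followed its label. Oligodendrocyte markers also differed, at 731 to 1281 CPM in cortex and 3871 to 5970 CPM in accumbens. The list of GABA interneuron markers held both directions. Gad1 and Gad2, which projection neurons of the striatum also express, were called higher in accumbens under both diets, as was Lhx6. The interneuron markers Pvalb and Vip were called lower, with Vip at 50.8 to 92.2 CPM in cortex and 0.646 to 5.60 CPM in accumbens. The part of these marker differences in the channel results was not tested.

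Transcripts of a gene were counted as separate features, and reads overlapping several features were tallied as ambiguous in a row that names no gene. The striatal markers Adora2a and Tac1 and the astrocyte marker Aqp4 are listed at 0 in every library, the cause of these zeros was not tested, and they are not read as absence. No length of the counted transcripts was at hand, so levels are compared between samples for each gene and never between genes. Of the 40 members, 6 passed the filter on low counts in no comparison. Among them, Scn10a had 68 reads over the 20 libraries, Cacna2d4 43, Cacng1 33 and Cacng6 104.

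One cortex library, replicate 4 of the standard diet, stood apart from the other 9 and is given first because several results rest on it. Its summed meninges and fibroblast markers were 1484 CPM against 81.3 to 344 CPM in the other 9 cortex libraries, and 9 of the 9 markers found were above all of them. Its cortical glutamatergic markers summed to 1873 CPM against 2846 to 3564 CPM, with 9 of 10 below all others. Of 8 GABA interneuron markers, 3 were above all others, namely Gad1 (932 against 292 to 374 CPM), Gad2 and Calb2. Pvalb, Sst, Vip and Lhx6 were below all others, with Pvalb at 32.1 against 50.1 to 64.4 CPM, so the list's sum (1363 against 729 to 865 CPM) was carried by Gad1. Of the choroid plexus sum, 24.0 CPM against 0.885 to 14.4 CPM, Kcnj13 alone gave 21.4 CPM, and Ttr was at 0.668 CPM. Endothelial and mural markers summed to 678 against 382 to 532 CPM. In accumbens, replicate 4 of the standard diet had cortical glutamatergic markers at 515 CPM, against 72.0 to 121 CPM in the other 9 accumbens libraries. Values are with all libraries unless stated, and values without the cortex library are given for some of the results that depend on it.

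Channel genes differed between the regions in both directions. Under standard diet, 12 members were higher (23% of accessions) and 12 lower (24% of accessions) in accumbens than in cortex among the 33 tested (adjusted p under 0.05, edgeR quasi-likelihood test with Benjamini-Hochberg adjustment over all 11612 accessions tested). The background was high: 47% of all accessions tested passed the same threshold. After low-iron diet, in libraries the first contrast did not use, 12 were again higher (30.1% of accessions) and 12 lower (29% of accessions) among 31 tested, beside 59.1% of 11220 accessions in either direction. Of the 31 members tested under both diets, 21 were called in both, each with the same sign, 10 higher and 11 lower in accumbens. That is 87.5% of the calls under each diet. The share of all accessions called under both diets was not computed, so the 87.5% is not read as a trait of channel genes. The libraries of the regions did not overlap for 19 members under standard diet (33.3% of accessions) and for 20 after low-iron diet (44.7%). The median log2 fold change of the members was -0.01 under standard diet (0.01 over all accessions) and 0.10 after low-iron diet (0.03 over all), while the median of its absolute value was 0.60 and 0.69 (0.24 and 0.29 over all).

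Differences of at least 2-fold were fewer. Under standard diet, 4 members were called and at least 2-fold higher in accumbens (Scn4b, Scn9a, Cacna2d2, Cacna2d3; 4.66% of accessions) and 3 at least 2-fold lower (Cacna1s, Cacna1f, Cacng3; 6.75%). After low-iron diet 5 were at least 2-fold higher, the same 4 and Scn7a (5.18%), and 3 lower, namely Cacna1f, Cacng3 and Cacng2 (6.81%). Without replicate 4 of standard-diet cortex, Scn7a (log2 1.76) and Cacng2 (-1.08) were also called and at least 2-fold apart under standard diet.

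**Figure D1:**
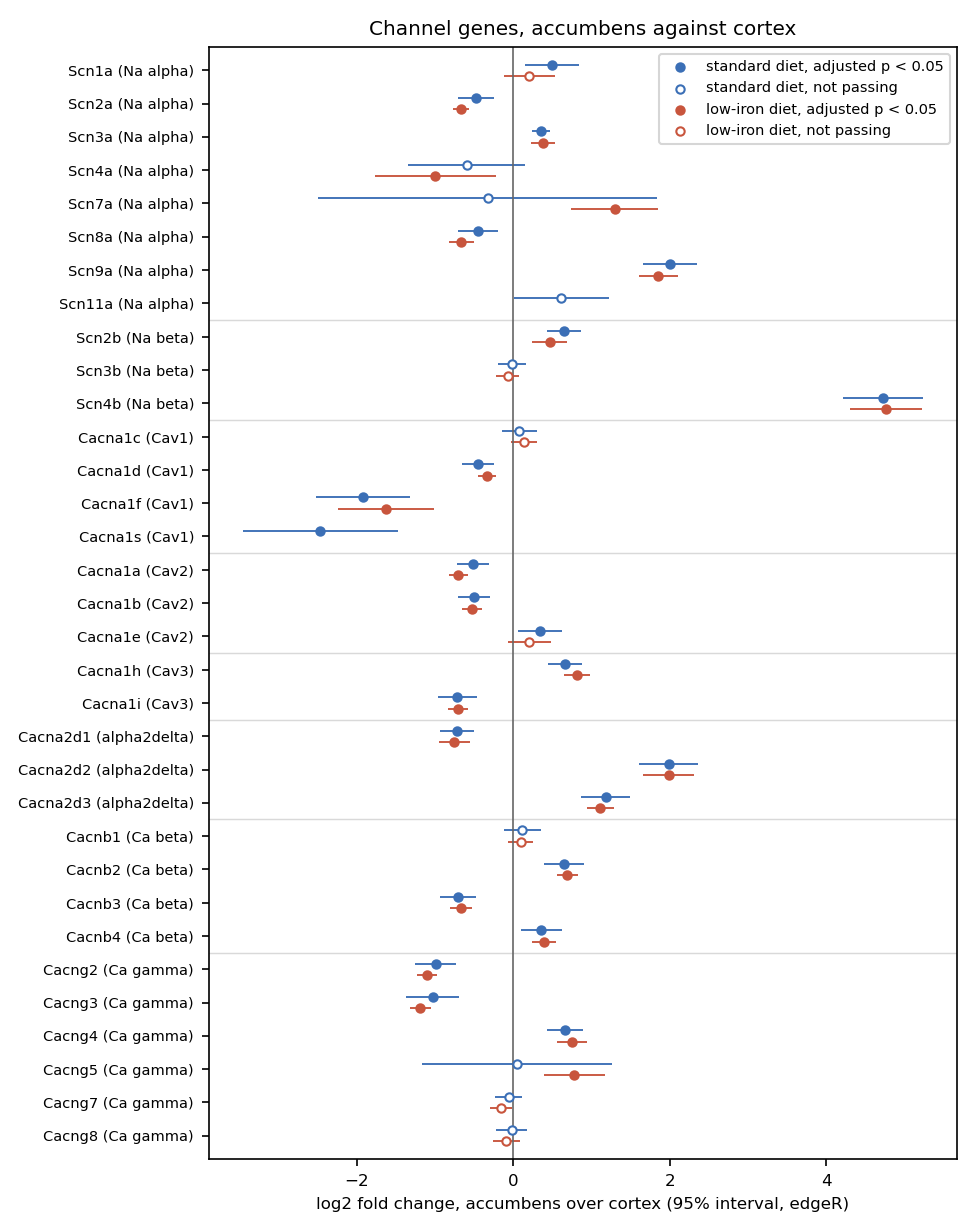
Log2 fold change of accumbens over cortex (x axis) for each channel gene tested (y axis, grouped by subunit family), under standard diet (blue) and after low-iron diet (red). Bars are 95% intervals and filled points passed an adjusted p of 0.05. Scn4b lies farthest to the right at 4.73 and 4.77, and the Scn7a and Cacng5 intervals are wide under standard diet.

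Among sodium channel genes, the largest difference belonged to Scn4b (chromosome 8), which encodes the beta4 subunit associated with resurgent sodium current. Its level in the 5 standard-diet cortex libraries was 23.0, 22.6, 21.5, 24.4 and 22.6 CPM, and in the 5 standard-diet accumbens libraries it was 701, 883, 404, 586 and 423 CPM. After low-iron diet it was 30.0, 28.3, 19.5, 20.1 and 30.7 CPM in cortex and 848, 728, 766, 463 and 664 CPM in accumbens. Each accumbens library was far above each cortex library within the same diet, and the accumbens libraries spread widely. The fold was 26.5 under standard diet (log2 4.73, SE 0.23, edgeR adjusted p = 1.2e-07) and 27.2 after low-iron diet (log2 4.77, SE 0.20, adjusted p = 1.1e-08).

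Scn9a, which encodes Nav1.7, a channel best known from peripheral sensory neurons, was the second. It stood at 5.20, 5.17, 7.01, 4.23 and 6.29 CPM in standard-diet cortex and at 21.4, 18.3, 26.7, 18.4 and 26.2 CPM in standard-diet accumbens. The ranges of the regions were well apart, and the fold was 4.01 (log2 2.0, SE 0.16, edgeR adjusted p = 9.3e-07). After low-iron diet the means were 6.14 ± 0.501 CPM in cortex and 21.9 ± 2.87 CPM in accumbens (SD, n = 5), a fold of 3.62.

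The alpha2delta genes, whose products bind gabapentin-type drugs in the case of Cacna2d1 and Cacna2d2, split by direction. Cacna2d2 was 37.1, 38.5, 44.5, 45.5 and 41.1 CPM in standard-diet cortex and 163, 126, 207, 111 and 206 CPM in accumbens, a 3.96-fold difference (log2 1.99, SE 0.17, edgeR adjusted p = 4e-06). Cacna2d3 was 133, 134, 125, 84.1 and 138 CPM in cortex and 319, 322, 238, 269 and 232 CPM in accumbens, a 2.27-fold difference (log2 1.18, SE 0.14, edgeR adjusted p = 4.2e-05). Both were higher in accumbens with no overlap, and the lowest cortex value of Cacna2d3 came from replicate 4. Cacna2d1 went the other way, with 38.7 ± 3.35 CPM in cortex and 23.4 ± 3.66 CPM in accumbens (log2 -0.72, SE 0.10). After low-iron diet the log2 fold changes were 1.99 for Cacna2d2, 1.11 for Cacna2d3 and -0.75 for Cacna2d1.

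Cacng3, which encodes the TARP gamma-3, was 141, 137, 124, 78.0 and 137 CPM in standard-diet cortex and 60.5, 69.0, 53.8, 66.0 and 50.7 CPM in accumbens. The groups did not overlap, although the replicate 4 cortex library lay close to the accumbens values. The fold was 2.04 in favour of cortex under standard diet (log2 -1.03, SE 0.15, edgeR adjusted p = 0.000213) and 2.27 after low-iron diet (log2 -1.19, SE 0.06). Without that cortex library the standard-diet log2 value was -1.15 (SE 0.08).

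With all libraries, these 5 genes were at least 2-fold apart under both diets with a mean of at least 10 CPM in some group. Their promoter windows are therefore shown, from 250 bases before to 50 bases after the annotated start, as RefSeq gives them on GRCr8. They lie at chr8:54343623-54343922 (Scn4b, plus strand), chr3:71701328-71701627 (Scn9a, minus strand), chr8:116950856-116951155 (Cacna2d2, plus strand), chr16:4918850-4919149 (Cacna2d3, minus strand) and chr1:186632312-186632611 (Cacng3, plus strand). Sequences read 5′ to 3′ on the gene's strand, and capitals mark matches to the GC box, GGGCGG or its reverse complement CCGCCC, overlapping matches included.
Scn4b: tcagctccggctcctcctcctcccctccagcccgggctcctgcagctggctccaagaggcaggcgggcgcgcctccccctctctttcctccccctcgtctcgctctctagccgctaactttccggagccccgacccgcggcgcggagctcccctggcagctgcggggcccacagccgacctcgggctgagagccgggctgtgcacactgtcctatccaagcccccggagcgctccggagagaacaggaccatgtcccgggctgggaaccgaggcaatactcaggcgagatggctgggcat
Scn9a: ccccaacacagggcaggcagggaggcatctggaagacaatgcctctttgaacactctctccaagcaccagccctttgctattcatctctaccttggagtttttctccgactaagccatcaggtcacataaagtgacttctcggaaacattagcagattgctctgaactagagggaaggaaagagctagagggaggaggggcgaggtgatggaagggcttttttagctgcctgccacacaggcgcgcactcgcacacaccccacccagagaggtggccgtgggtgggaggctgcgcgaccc
Cacna2d2: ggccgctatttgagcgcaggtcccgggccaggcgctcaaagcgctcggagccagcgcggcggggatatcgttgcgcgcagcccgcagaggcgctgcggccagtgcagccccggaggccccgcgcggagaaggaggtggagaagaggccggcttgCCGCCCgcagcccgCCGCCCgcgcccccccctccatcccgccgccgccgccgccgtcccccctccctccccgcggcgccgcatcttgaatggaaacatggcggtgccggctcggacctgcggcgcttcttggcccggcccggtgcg
Cacna2d3: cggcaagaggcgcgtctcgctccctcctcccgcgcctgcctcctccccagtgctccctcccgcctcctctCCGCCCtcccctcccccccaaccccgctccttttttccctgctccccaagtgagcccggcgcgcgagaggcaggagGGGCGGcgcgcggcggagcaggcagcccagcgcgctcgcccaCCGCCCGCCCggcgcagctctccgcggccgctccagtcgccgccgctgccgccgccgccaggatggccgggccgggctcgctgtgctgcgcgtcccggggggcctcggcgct
Cacng3: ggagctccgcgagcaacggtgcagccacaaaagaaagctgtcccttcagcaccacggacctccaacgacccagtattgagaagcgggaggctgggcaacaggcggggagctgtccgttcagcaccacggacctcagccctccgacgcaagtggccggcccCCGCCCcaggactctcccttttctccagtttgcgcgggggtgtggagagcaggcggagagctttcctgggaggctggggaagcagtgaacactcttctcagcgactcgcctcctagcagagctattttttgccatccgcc
The windows hold 0, 0, 2, 4 and 1 GC boxes, in that order, and their GC content is 70.0, 56.0, 77.0, 79.3 and 63.0%. Promoter windows were at hand for 27 of the 40 members. The GC box was present in 14 of the 27 (51.9%), beside 33.1% of 33469 promoter windows of the same length. The letters TATAAA were in 2 of the 27 (14.2% of all windows, either strand), CCAAT in 4 (37.5%) and the cyclic AMP response element TGACGTCA in 0 (1.83%). The median GC content was 61.7% in the members and 51.7% in all windows. A match describes the letters in a window and is not a binding site, and no match says only that the letters are not in that window.

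**Figure D2:**
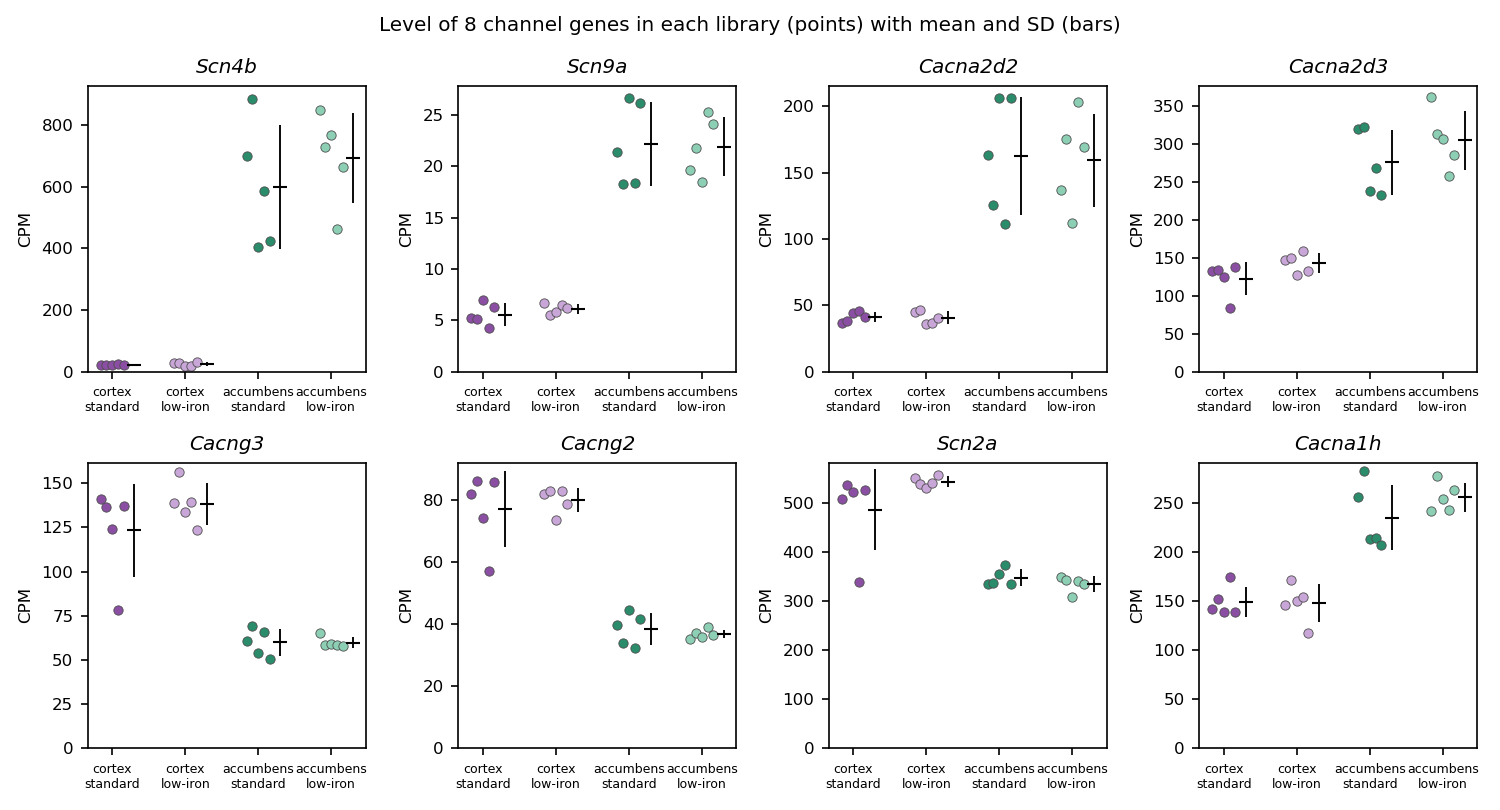
CPM (y axis, from 0) of 8 channel genes in each of the 20 libraries, by region and diet (x axis); points are libraries and the bar beside them is the mean with 1 SD. The top row is higher in accumbens in each library, and replicate 4 of standard-diet cortex is the low point for Cacng3, Cacng2, Scn2a and Cacna2d3.

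The other sodium channel alpha genes of neurons split. Scn2a, encoding Nav1.2, was 509, 537, 523, 339 and 526 CPM in standard-diet cortex and 335, 338, 356, 375 and 335 CPM in accumbens, lower in accumbens by a log2 fold change of -0.48 (SE 0.11, edgeR adjusted p = 0.00329). The groups overlapped through replicate 4 of cortex alone, whose 339 CPM lay among the accumbens values. Without that library the log2 fold change was -0.58 (SE 0.05). After low-iron diet Scn2a was 531 to 557 CPM in cortex and 308 to 350 CPM in accumbens, without overlap (log2 -0.67, SE 0.05). Scn8a, encoding Nav1.6 of the axon initial segment and nodes, was likewise lower in accumbens, with log2 fold changes of -0.44 and -0.66. Without cortex replicate 4 the standard-diet value of Scn8a was -0.55. Scn3a, encoding Nav1.3, was higher in accumbens by 0.35 and 0.38 without overlap under either diet. Scn1a, encoding the interneuron-enriched Nav1.1, was called under standard diet (log2 0.50, SE 0.16, adjusted p = 0.0222) but not after low-iron diet (0.21, adjusted p = 0.249). The Scn1a call was also lost, with adjusted p of 0.0504 to 0.0560, when cortex replicate 1 or 3 or accumbens replicate 3 or 5 was left out. After low-iron diet it passed without accumbens replicate 3 (0.31, adjusted p = 0.0370).

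Of the beta subunits, Scn2b was higher in accumbens, at 115 ± 13.1 against 74.0 ± 9.39 CPM under standard diet (log2 0.65), and again after low-iron diet (0.46). Scn3b did not pass under either diet, with 400.0 ± 30.7 CPM in cortex and 394 ± 42.8 CPM in accumbens under standard diet, and its 95% interval ran from -0.19 to 0.17. The share of each beta gene in the summed sodium beta reads of a library shows the change of mix. Scn4b took 4.61 ± 0.497% of them in standard-diet cortex and 53.0 ± 5.70% in accumbens (SD, n = 5), while Scn3b took 80.4 ± 0.974% and 36.3 ± 4.30%. Shares depend on transcript length and leave out reads tallied as ambiguous, so they are compared between regions only.

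Scn4a and Scn11a had few reads in both regions. Scn4a, the skeletal muscle channel, was called lower in accumbens after low-iron diet alone (log2 -0.998, SE 0.37, adjusted p = 0.0263), at means of 0.998 CPM in accumbens and 2.08 CPM in cortex. Leaving out any of 5 libraries (cortex replicate 4, accumbens replicates 2, 3, 4 and 5) ended that call, with adjusted p of 0.0523 to 0.0661. Under standard diet Scn4a did not pass with all libraries (log2 -0.60) but passed without cortex replicate 5 (-0.77, edgeR adjusted p = 0.0446). Scn11a, encoding Nav1.9, was tested under standard diet alone and did not pass (log2 0.62, adjusted p = 0.0917), although it passed without cortex replicate 1 (0.86, adjusted p = 0.0321). Scn7a is described with the cortex libraries below.

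Pore-forming calcium channel genes included members higher and lower in accumbens. Of the Cav2 genes, Cacna1a (P/Q-type) and Cacna1b (N-type), which serve transmitter release, were lower. Cacna1a was 443, 441, 420, 346 and 479 CPM in standard-diet cortex and 282, 343, 268, 311 and 274 CPM in accumbens, just without overlap (log2 -0.52, SE 0.09, edgeR adjusted p = 0.000636), and -0.70 after low-iron diet. Cacna1b had log2 fold changes of -0.50 and -0.52. Cacna1e, the R-type gene, was barely called under standard diet (0.34, adjusted p = 0.047), lost the call with DESeq2 (adjusted p = 0.0536), with the other scaling, without the filter and without any of 8 libraries, and was not called after low-iron diet (0.21, adjusted p = 0.186).

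The Cav3 genes of low-threshold T-type current differed in opposite directions. Cacna1h was 142, 152, 139, 175 and 139 CPM in standard-diet cortex and 256, 283, 214, 215 and 207 CPM in accumbens (log2 0.66, SE 0.10, edgeR adjusted p = 0.000186), while Cacna1i was lower in accumbens, at 158 ± 30.0 against 261 ± 17.5 CPM (log2 -0.71, SE 0.11). After low-iron diet the values were 0.82 and -0.71. Cacna1h took 12.8 ± 1.51% of the summed alpha1 reads in standard-diet cortex and 24.5 ± 1.59% in accumbens, and Cacna1i took 22.3 ± 0.915% and 16.4 ± 1.37%. The remaining Cav3 gene, Cacna1g, was at most 2.77 CPM in any library and was tested in the diet comparison of cortex and the interaction alone. Cacna1g has 2 accessions, reads overlapping both are tallied as ambiguous, and its low level is not read as absence.

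Of the Cav1 genes, which encode L-type channels, Cacna1d was lower in accumbens (log2 -0.45 and -0.33) and Cacna1c did not pass under either diet (0.08, 95% interval -0.14 to 0.30, and 0.14, -0.03 to 0.30). Without cortex replicate 4 the standard-diet value of Cacna1d was -0.34. Cacna1f, known from retinal photoreceptors, had 17 to 30 reads per standard-diet cortex library and 3 to 7 per accumbens library, a log2 fold change of -1.92 (SE 0.28) under standard diet and -1.62 (SE 0.29) after low-iron diet. Cacna1s, the skeletal muscle L-type gene, had 29, 31, 16, 55 and 19 reads in standard-diet cortex and 2, 3, 4, 5 and 6 in accumbens (log2 -2.46, SE 0.46), and the 55 reads came from replicate 4. Without that library the value was -2.08 (SE 0.33), and Cacna1s did not pass the filter after low-iron diet.

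Beta subunits of calcium channels, which bind the pore inside the cell, differed gene by gene. Cacnb3 was 497, 462, 436, 378 and 452 CPM in standard-diet cortex and 264, 325, 236, 299.7 and 229 CPM in accumbens, lower without overlap (log2 -0.71, SE 0.10, edgeR adjusted p = 0.000145). Cacnb2 was higher, at 62.7 ± 10.7 CPM in cortex and 97.6 ± 11.6 CPM in accumbens (log2 0.65, SE 0.12), and Cacnb4 was higher by 0.36 (adjusted p = 0.0285). Cacnb4 lost its standard-diet call when any of 5 libraries was left out (adjusted p 0.0524 to 0.0695) but was called after low-iron diet (0.40, adjusted p = 0.000129). Cacnb1 did not pass (0.12 and 0.10).

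The gamma genes held both directions as well. Cacng2, which encodes stargazin, was 82.0, 86.1, 74.1, 57.1 and 85.8 CPM in standard-diet cortex and 39.8, 33.9, 44.6, 32.4 and 41.6 CPM in accumbens, lower without overlap (log2 -0.99, SE 0.12, edgeR adjusted p = 3.7e-05). Its log2 value was -1.08 under standard diet without cortex replicate 4, and -1.10 after low-iron diet. Cacng4 was higher in accumbens, at 74.8 ± 12.5 against 47.6 ± 3.90 CPM (log2 0.66 and 0.75). Of the family's summed reads, Cacng4 took 10.5 ± 0.641% in standard-diet cortex and 20.0 ± 2.12% in accumbens. Cacng8, another TARP gene, did not pass under either diet (-0.02 and -0.09). Cacng7 did not pass either (-0.06 and -0.15), although after low-iron diet it passed with the other scaling and without the filter, with adjusted p of 0.0454 and 0.0482. It also passed there without cortex replicate 4 (adjusted p = 0.0302), cortex replicate 5 (0.0383) or accumbens replicate 4 (-0.21, adjusted p = 0.0117).

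Scn7a, which encodes the sodium-sensing channel Nax, found in glia and sensory neurons rather than as a carrier of action potentials, showed how far 1 library can set a value. In standard-diet cortex it was 1.43, 0.807, 0.733, 17.1 and 0.771 CPM, and in low-iron cortex 0.874, 1.08, 1.27, 0.961 and 1.73 CPM. The high value is replicate 4, which had 154 reads where the other 9 cortex libraries had 6 to 19. In accumbens it was 2.15, 1.76, 6.25, 1.93 and 4.32 CPM under standard diet and 2.99, 2.73, 2.80, 4.01 and 1.96 CPM after low-iron diet. The accumbens libraries were thus above the cortex libraries apart from replicate 4.

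Scn7a was called higher in accumbens after low-iron diet (log2 1.30, SE 0.26, edgeR adjusted p = 0.000347). Under standard diet the value was -0.33 (SE 0.97, adjusted p = 0.807) with all libraries and 1.76 (SE 0.44, adjusted p = 0.00452) without cortex replicate 4. Cacng5, a TARP gene, followed the same pattern: 4.84, 4.52, 4.08, 24.8 and 3.60 CPM in standard-diet cortex against 6.88 to 10.9 CPM in accumbens. Its region difference was 0.05 (SE 0.55) with all libraries and 1.00 (SE 0.16, adjusted p = 0.000121) without replicate 4, and it was called after low-iron diet (0.78, adjusted p = 0.00142). Without that library 13 members were higher and 12 lower under standard diet. The background moved as well, with 6294 of 11647 accessions called, against 5462 of 11612 with all libraries. With replicate 4 of standard-diet accumbens left out as well, 12 members were higher and 12 lower. There, 6683 of 11623 accessions had an unadjusted p under 0.05 with edgeR, against 6189 of 11612 with all libraries.

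In that cortex library, 8 of the 33 members tested in cortex were above all 9 others (24.2%) and 16 were below all 9 (48.5%). Over 10969 accessions with a mean of at least 20 reads in cortex, the shares were 24.0% and 33.6%. Beyond Scn7a and Cacng5, Cacna1s was at 6.12 CPM against 1.55 to 2.62, Cacna1d at 169.7 against 121 to 140.2 and Cacng7 at 112 against 82.2 to 100.3 CPM. Among those below were Scn2a, Scn8a, Cacna1a, Cacna2d3 and Cacng3, and Scn8a was at 137 CPM against 193 to 251. Scn4b, at 24.4 CPM, lay within the range of the others, 19.5 to 30.7 CPM, and so did Cacna2d2. Lists not given above also stood apart in this library. Brain septum and neighbour markers summed to 99.4 against 37.6 to 50.5 CPM, with 3 of 5 above all others and 1 below. Schwann markers summed to 104 against 65.2 to 81.0 CPM. The channel partner genes described below summed to 2669 against 3449 to 3737 CPM, with 14 of 23 below all others and 3 above. Oligodendrocyte precursor markers (491 against 419 to 481 CPM) and cholinergic markers (5.79 against 5.97 to 11.1 CPM) lay just outside. The part of all these lists in its channel levels was not tested.

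**Figure D3:**
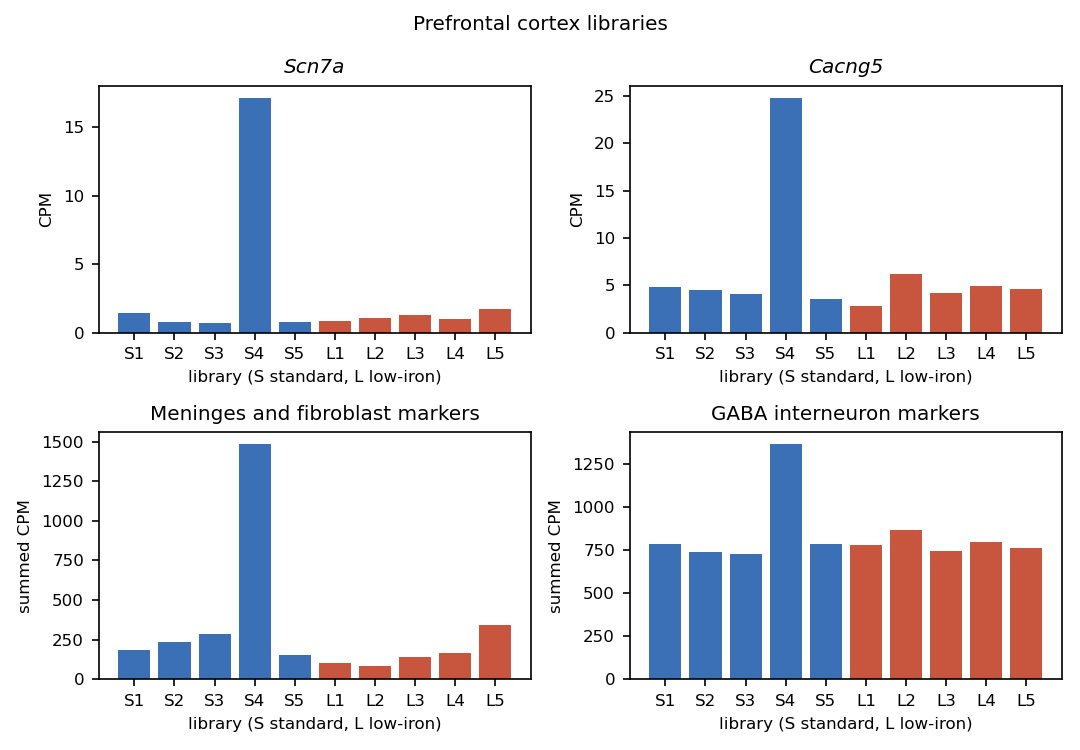
Bars (from 0) for the 10 cortex libraries (x axis; S1 to S5 standard diet, L1 to L5 low-iron diet) give CPM of Scn7a and Cacng5 and the summed CPM of meninges and fibroblast markers and the GABA interneuron list, whose sum in S4 is carried by Gad1. Library S4 is the highest in each panel, with Scn7a at 17.1 CPM and meninges markers at 1484 CPM.

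No channel gene passed the test of diet in either region. In cortex, 0 of 33 members were called, as were 0 of all 11662 accessions (0%) by edgeR's quasi-likelihood test, and DESeq2 called 0 as well. At an unadjusted p under 0.05 stood 1 member, Cacna1a, beside 5.99% of accessions with edgeR, and 1 member with DESeq2. That count was 3 without standard-diet replicate 5 (1156 accessions) and 3 with library size as a covariate (714 accessions), and 0 without low-iron replicate 2. Cacna1a, the P/Q-type pore, was 443, 441, 420, 346 and 479 CPM under standard diet and 491, 556, 477, 478 and 444 CPM after low-iron diet (log2 0.19, SE 0.08, edgeR adjusted p = 0.683), and the groups overlapped. No member's groups were apart, beside 1.05% of accessions.

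The estimates in cortex lay above 0 for 24 of 33 members, beside 49.8% of all accessions, with a median of 0.09 (all accessions 0.00). Without replicate 4 of the standard diet, 30 of 34 members lay above 0, beside 51.1% of all accessions. The median was then 0.06 (all accessions 0.0025). With all 10 cortex libraries, estimates of whole marker lists also lay to one side. Cortical glutamatergic markers lay above 0 for 10 of 10 (median 0.19), endothelial and mural markers below 0 for 9 of 9 (median -0.35, 4 at an unadjusted p under 0.05) and meninges and fibroblast markers below 0 for 9 of 9 (median -1.42), and 0 of them passed adjustment. Their part in the channel estimates was not tested. After Cacna1a the lowest p-values above 0 belonged to Scn2b (0.19, SE 0.10) and Cacna2d3 (0.21, SE 0.11). In Cacna1a, Scn2b and Cacna2d3, replicate 4 was below the other 9 cortex libraries. Without replicate 4 Cacna1a was 0.13, Scn2b 0.13 and Cacna2d3 0.11, each with an edgeR adjusted p of 0.962. Below 0 the lowest p-values belonged to Cacna1s (-0.64, SE 0.34), Scn7a (-1.80, SE 1.05) and Cacng5 (-0.88, SE 0.60), in which replicate 4 was above the other 9 cortex libraries. Without replicate 4 these became -0.24, 0.33 and 0.11, with adjusted p of 0.962, 0.962 and 0.983. Scn4b was 22.8 ± 1.05 CPM under standard diet and 25.7 ± 5.47 CPM after low-iron diet, with a 95% interval of -0.10 to 0.44 for the log2 fold change.

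In accumbens, 0 of 29 members were called, and 0 of 11202 accessions (0%) by edgeR, while DESeq2 called 1 accession, which is no channel gene. At an unadjusted p under 0.05 stood 1 member, Cacng7, beside 4.05% of accessions with edgeR, and 1 member with DESeq2. That count was 5 of 29 without standard-diet replicate 2 (842 accessions) and 6 of 29 with library size as a covariate (928 accessions). It was 2 with the replicate block or without any of standard-diet replicate 1 and low-iron replicates 2 and 3, and 0 without standard-diet replicate 4 or 5. Cacng7, a gamma gene grouped with the TARPs, was 84.6, 83.6, 89.6, 93.7 and 93.3 CPM under standard diet and 75.2, 78.8, 77.1, 90.2 and 76.9 CPM after low-iron diet (log2 -0.15, SE 0.06, edgeR adjusted p = 0.972). The groups overlapped through the 90.2 CPM of replicate 4. Estimates lay above 0 for 19 of 29 members, beside 50.8% of accessions, with a median of 0.01 (0.00 over all). Leaving out each library gave 14 to 19 of 29. The median ran from -0.0035 without standard-diet replicate 5, and was also below 0 without replicate 3, to 0.07 without standard-diet replicate 2, and it was 0.08 with library size as a covariate. Striatal projection neuron markers lay above 0 for 10 of 10 (median 0.13) and cholinergic markers below 0 for 5 of 5 (median -0.42). Endothelial and mural markers lay below 0 for 9 of 9 (median -0.11). Of these accumbens markers 0 passed adjustment, and their part in the channel estimates was not tested. No member's groups were apart, beside 1% of accessions.

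The other accumbens members with the lowest p-values were Cacnb2 (log2 0.16, SE 0.08), Cacna1b (0.09, SE 0.06) and Cacna1h (0.13, SE 0.08) above 0, and Cacna1e (-0.15, SE 0.12) and Scn8a (-0.07, SE 0.07) below it. The low-iron accumbens libraries were also the shallowest group, at 5.13 ± 0.696 M reads against 7.19 ± 1.35 M. With library size as a covariate, Cacna1b and Scn8a changed sign, to -0.02 and 0.00. Most intervals were narrow: for Scn2a, the Nav1.2 gene, the 95% interval was -0.16 to 0.07, and for Cacna1a -0.14 to 0.15. That of Scn4b was wider, at -0.34 to 0.77, as its libraries ran from 404 to 883 CPM under standard diet and from 463 to 848 CPM after low-iron diet.

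**Figure D4:**
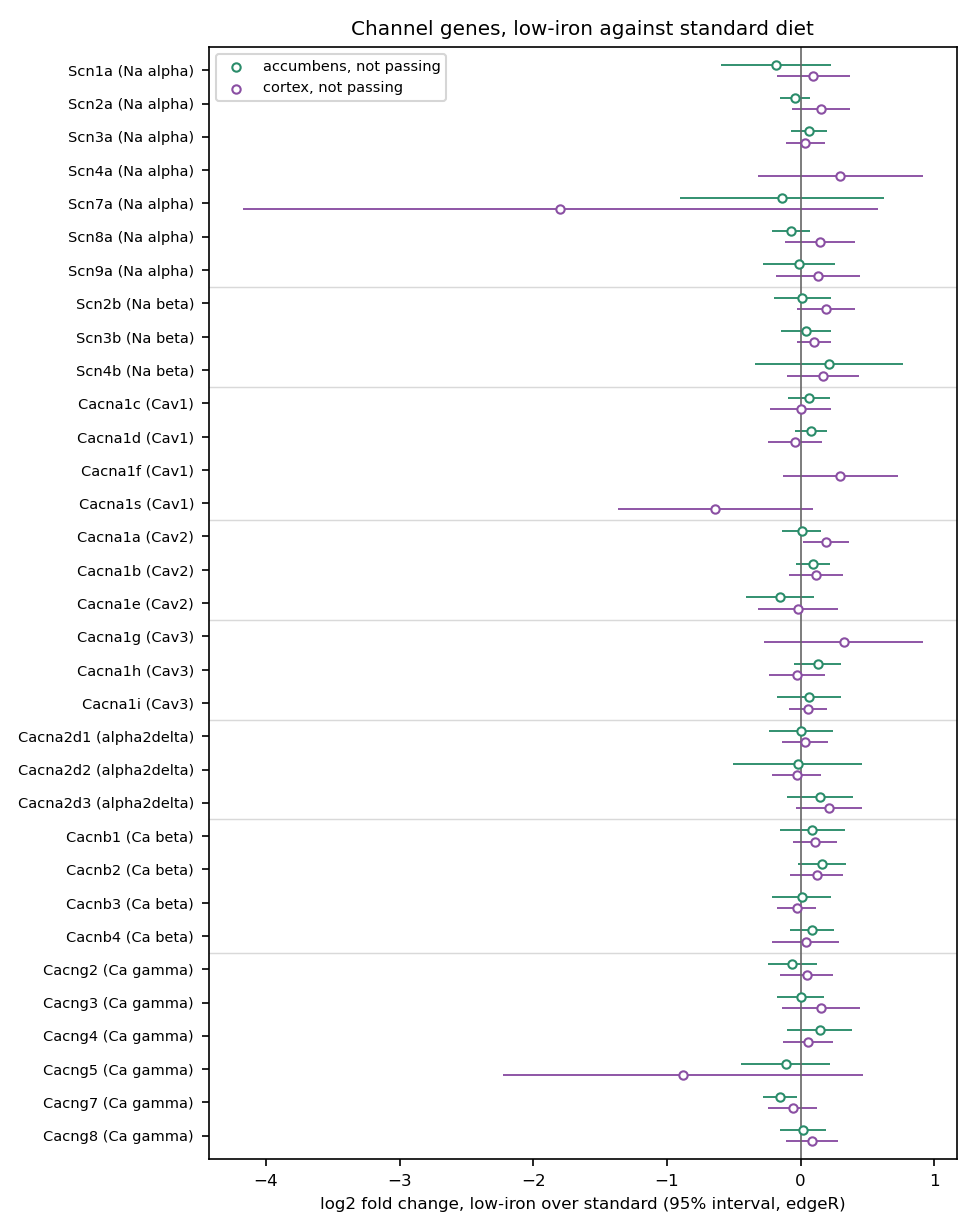
Log2 fold change of low-iron over standard diet (x axis) for each channel gene tested (y axis, by family) in accumbens (green) and cortex (purple), with 95% intervals. No gene passed an adjusted p of 0.05, and the widest intervals are those of Scn7a and Cacng5 in cortex.

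The interaction of diet and region, the difference between the diet effects of the regions, was tested with all 20 libraries. Of 34 members 0 were called, nor any of 11788 accessions (0%, edgeR; DESeq2 0). At an unadjusted p under 0.05 stood 1 member with either tool, beside 5.36% of accessions with edgeR. With edgeR that member was Scn11a (log2 -1.26, SE 0.49, adjusted p = 0.818), a gene with means of 0.762 to 1.24 CPM in the 4 groups. Scn2a (-0.21, SE 0.12) and Cacna1a (-0.20, SE 0.11) followed below 0. Estimates lay above 0 for 13 of 34 members, beside 48% of accessions. Above 0 the lowest p-values were those of Scn7a (1.61, SE 1.15), Cacna1s (0.86, SE 0.75) and Cacng5 (0.73, SE 0.63). Without replicate 4 of standard-diet cortex these 3 were -0.48, 0.48 and -0.23. With the same library left out, Scn2a was -0.11 and Cacna1a -0.13.

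Within accumbens, Scn4b was lowest in standard-diet replicates 3 and 5 and low-iron replicate 4, at 404, 423 and 463 CPM, where the other 7 libraries were at 586 to 883 CPM. These 3 libraries, picked by Scn4b itself, were also the lowest for 6 of the other 28 members tested in accumbens (21.4%), namely Scn3b, Cacna2d1, Cacna2d3, Cacnb1, Cacnb3 and Cacng4. They were the highest for 4 (14.3%), namely Cacna2d2, Scn1a, Scn7a and Scn9a. Over 10548 other accessions with a mean of at least 20 reads in accumbens, the shares were 5.15% and 6.04%, and no test was made of the difference. Cacna2d2 was 207, 206 and 203 CPM in those 3 and 111 to 175 CPM in the others, and Scn9a was 26.7, 26.2 and 25.3 CPM against 18.3 to 24.2 CPM.

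Some marker levels differed in those libraries too. Summed striatal projection neuron markers were 3736, 3696 and 3982 CPM in the same 3 libraries and 4913 to 6638 CPM in the other 7. Summed cholinergic neuron markers were 345, 306 and 243 CPM in the 3, and 117 to 246 CPM in the other 7, of which standard-diet replicate 1 was the highest. Of the cholinergic markers 5 of 5 had reads, and of the striatal markers 10 of 12, Adora2a and Tac1 being listed at 0. The part of these markers in these channel gene levels was not tested.

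**Figure D5:**
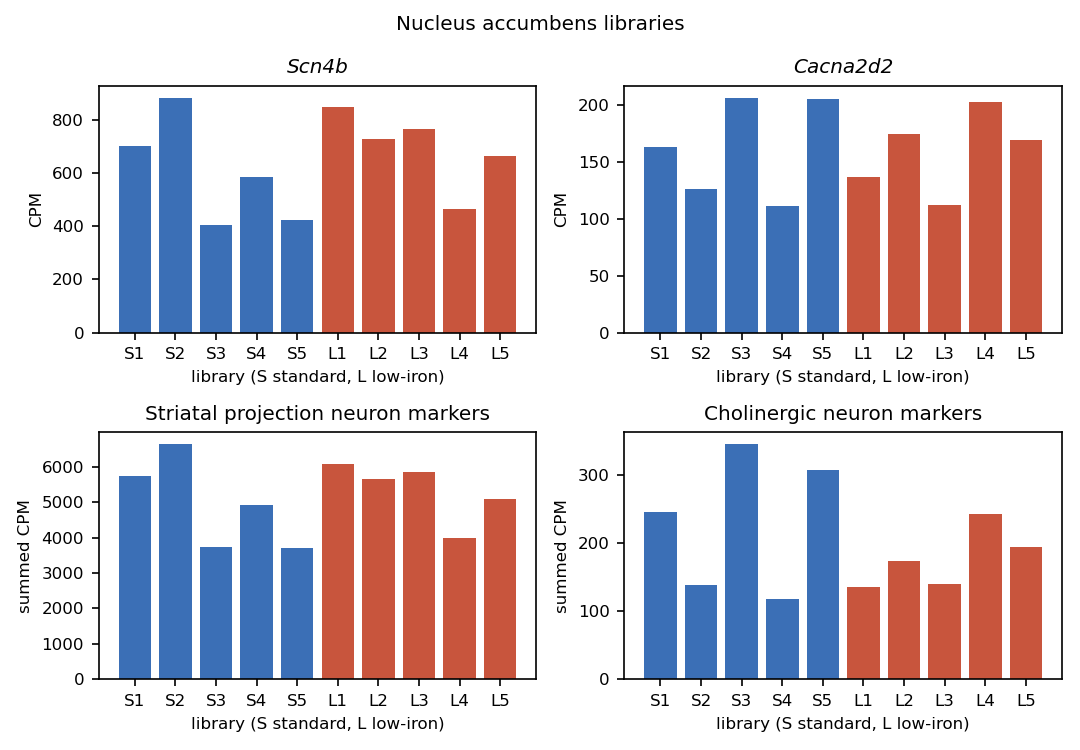
Bars (from 0) for the 10 accumbens libraries (x axis; S1 to S5 standard diet, L1 to L5 low-iron diet) give CPM of Scn4b and Cacna2d2 and the summed CPM of striatal projection neuron and cholinergic neuron markers. S3, S5 and L4 are the lowest for Scn4b and the striatal markers and the highest for Cacna2d2.

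Genes whose products bind or traffic these channels were read as a listed group, together with genes of the NALCN complex. Those that bind or traffic included fibroblast growth factor homologous factors, ankyrins, RGK proteins, STAC proteins and active-zone scaffolds. Of the 28 listed, 23 were found and 22 tested. None passed for diet in accumbens, in cortex or in the interaction. Between regions under standard diet, 7 were higher and 8 lower in accumbens, and after low-iron diet 9 and 9, with the backgrounds of 47% and 59.1% given above. Their median log2 fold change was -0.07 and 0.09.

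Rem2, an RGK protein that limits calcium channel number at the membrane, had the highest fold, with log2 values of 3.73 (SE 0.23) and 3.72 (SE 0.22). Fgf11, an intracellular partner of sodium channels, was higher by 1.48 (SE 0.14) under standard diet, and Akap5, which anchors kinases at L-type channels, by 1.17 (SE 0.08) after low-iron diet. Stac2 and Rimbp2, the latter a link between calcium channels and the active zone, had log2 values of -2.14 (SE 0.13) and -1.60 (SE 0.11) under standard diet. After low-iron diet the lowest p-values below 0 were those of Rimbp2 (-1.69, SE 0.06) and Rims1 (-1.34, SE 0.06). The diet values with the lowest p were small beside these: in accumbens Ank3 0.14, Fgf14 0.31, Rrad -0.31 and Stac2 -0.16, and in cortex Cabp1 0.55, Akap5 0.23, Rem1 -0.38 and Cachd1 -0.13, none passing.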

How the data were processed

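RNA of 20 libraries was deposited as read counts per RefSeq accession. Per the submitters' processing notes, rn6 was the genome build and HTSeq, STAR, Trimmomatic 0.36.3, DESeq and DESeq2 were the tools; their roles are not given in the sources used here. Counts in the unstranded column, as the authors deposited them, were used. Strand columns split evenly (49.6 to 50.0% on the first), so antisense partners could not be separated. The deposited tables of the diet comparisons held the same counts for all 17026 of their accessions. Their columns of statistics were not used. Rows that name no gene held 50.8 to 60.7% of reads and entered neither library sizes nor tests. A level of 0 allows up to 3 reads, or 0.231 to 0.691 CPM by library, and this covers counting error only.

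Each comparison was fitted on all accessions with edgeR 4.0.16 in R 4.3.3 (TMM, filterByExpr with a minimum count of 10, robust quasi-likelihood F test, Benjamini-Hochberg adjustment, threshold 0.05) on the libraries compared, and the interaction on all 20. The code was tested on simulated data. Members, lists and tests were chosen with earlier results of these data known. Named genes were, for diet and interaction, the 3 members with the lowest p in each direction, for region each member called with a 2-fold difference and the main members of each family, Scn7a throughout, and the 2 channel partners with the lowest p in each direction. Alternatives were DESeq2 1.42.0, RLE scaling, no filter, accessions summed per symbol, a replicate block, library size as a covariate, and leaving out libraries. No pair of libraries within a group agreed within sampling noise (lowest chi-square per degree of freedom 2.03 over 40 pairs). Promoter windows came from RefSeq on GRCr8, which differs from rn6, so chromosomes of members are those in the deposited tables and coordinates are given for promoters alone. Some members are not reported here by name.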

Additional observations from a re-analysis of the deposited data

Results flagged for a closer look

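In groups of 5 libraries, a member's highest or lowest library stood apart from the other 4 (gap over range above 0.71) in 15 of 124 groups tested. Chance flags about 1 in 20 groups. Of the 15, 7 were replicate 4 of standard-diet cortex: Scn7a at 17.1 CPM, Cacng5 at 24.8, Cacna1s at 6.12 and Cacna1d at 169.7 were high, and Scn2a at 339, Cacna2d3 at 84.1 and Cacng3 at 78.0 were low. The other 8 were spread over 8 libraries. In cortex, Cacna2d1 was high at 44.7 CPM in standard-diet replicate 5, Cacng8 was high at 135 CPM in low-iron replicate 2, and Scn4a was low at 1.45 CPM in low-iron replicate 3. In accumbens, Cacna1i was high at 180.3 CPM in low-iron replicate 2, Cacng3 at 65.2 CPM in low-iron replicate 1 and Cacng7 at 90.2 CPM in low-iron replicate 4. Cacnb4 was low in standard-diet replicate 5 (62.2 CPM) and in low-iron replicate 3 (61.0 CPM). No member's diet difference was found to differ between regions by the interaction test.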

How the results depend on the processing

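Over the alternatives run, the counts of channel genes called stayed at 0 for diet in either region and for the interaction; the accession count for diet in accumbens was 1 with DESeq2. For region under standard diet, leaving out each library in turn gave 9 to 13 members higher and 12 to 13 lower. All accessions called there ran from 4906 to 6294. After low-iron diet 12 to 13 members were higher and 11 to 14 lower, beside 6245 to 6534 accessions called. Signs changed for members near 0 or set by 1 library. With library size as a covariate, diet in accumbens gave -0.0151 for Cacna1b and 0.000766 for Scn8a. Leaving out each library, the log2 values ran as follows. For diet, Scn7a ran from -0.31 to 0.22 in accumbens and from -2.08 to 0.33 in cortex, and Cacng5 from -1.06 to 0.11 in cortex. In the interaction, Scn7a ran from -0.48 to 1.97 and Cacng5 from -0.23 to 0.90. For region under standard diet, Scn7a ran from -0.69 to 1.76, Cacng5 from -0.13 to 1.00, Cacng7 from -0.0917 to 0.0204, Cacng8 from -0.0626 to 0.0394 and Scn3b from -0.0411 to 0.0325, and after low-iron diet Cacng8 ran from -0.14 to 0.00281. With replicate 4 of both regions left out, Scn7a was 1.88 and Cacng7 0.00334 under standard diet. The cause was not tested.

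Groups share replicate numbers. Between the regions, correlations of deviations of same-numbered libraries were 0.07, 0.07, 0.03, -0.04 and 0.02 under standard diet (replicates 1 to 5). After low-iron diet they were 0.04, 0.05, 0.13, 0.02 and 0.14. Cortex replicates 1, 2 and 3 under standard diet and 1, 3 and 5 after low-iron diet correlated best with the accumbens library of their own number. Between diets within a region the values ran from -0.32 to 0.16. Whether same-numbered cortex and accumbens libraries share a rat was not tested, and the numbers were not taken as pairs in the main fits. With a replicate block, the region count under standard diet was 5188 accessions against 5462 and 6818 against 6632 after low-iron diet, with 12 members higher and 12 lower under each diet, and diet and the interaction had 0 calls. Scn7a under standard diet changed sign with the block, to 0.54. Depth limits the members under about 3 CPM, among them Cacna1f, Cacna1g, Cacna1s, Scn4a and Scn11a. For Cacna1g, with 2 accessions, reads tallied as ambiguous may also lower the count, which was not tested.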
